A study of Mus musculus with 12 samples.

Results

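The BCL2 family of apoptosis regulators was followed through 10 genes, chosen by symbol, in RNA-seq libraries of primary mouse neurons. The 10 members are Bcl2, Bcl2l1, Mcl1, Bax, Bak1, Bok, Bbc3, Pmaip1, Bid and Bcl2l11. They are 10 of 18223 genes in the table of the H-Ras(G12V) experiment and 10 of 17800 genes in the table of the etoposide experiment, with 17416 genes in both. Values are FPKM, which correct fragment counts for transcript length and library total and so allow levels of different genes to be compared. All 10 members averaged at least 1 FPKM over the 6 libraries of each table, the filter for testing, and none was left out.

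Neurons of C57BL/6 mice were collected on day 10 of both treatments, with 3 libraries in each of 4 groups. In the first experiment, neurons carrying an adeno-associated virus for over-expression of H-Ras(G12V), an oncogenic mutant locked in its GTP-bound state, were set against neurons of WT genotype labelled mCherry, a fluorescent protein. In the second, WT neurons treated with etoposide, a topoisomerase II poison that leaves DNA breaks, were set against WT neurons given its solvent DMSO. The study calls these its OIS and SIPS models of neuronal aging. The labels give no promoter for the H-Ras(G12V) vector, no vector for mCherry, no etoposide dose and no age of the mice. Nor is it stated that replicates stem from different cultures or mice, so p-values here cover the spread among libraries alone, which may be technical. For the 6 libraries of the etoposide experiment the treatment tag names the opposite group to the title. Titles, which the column names follow, decided the grouping here, and every etoposide direction turns around if the tag is right.

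The Hras row lay between 33.5 and 51.6 FPKM in the H-Ras(G12V) libraries and between 43.0 and 45.9 FPKM in the mCherry libraries. The species and coding sequence of the vector's H-Ras(G12V) are not given, so this row of the mouse gene does not check the label. Depth, estimated from the steps between low FPKM values, was 16000000 to 17400000 fragments in the first experiment and 25600000 to 31300000 in the second. Libraries 3 of mCherry and of etoposide stood apart from the others of their groups. Spearman's rho across genes was 0.997 between mCherry libraries 1 and 2 and no more than 0.929 between either and mCherry library 3. Etoposide library 3 was closer to every DMSO library (rho 0.931 to 0.979) than to etoposide library 1 (0.811) or 2 (0.881). Results are given with and without libraries 3 of mCherry and of etoposide where that matters. DMSO library 3 departed less, with rho 0.956 and 0.943 to DMSO libraries 1 and 2, which had 0.986 between them. Each of the 12 neuronal markers examined was above 0 in at least 1 library of each group, and their summed level was 722 to 2594 FPKM. Glial markers were abundant as well, with summed astrocyte markers at 609 to 3680 FPKM, so the labelled neuron cultures also held glial RNA. In such bulk samples, fewer cells of a type and less RNA per cell cannot be told apart.

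BCL2 proteins decide whether the outer mitochondrial membrane is opened, the step that releases cytochrome c and sets off the caspases. The guards BCL2, BCL-xL (from Bcl2l1) and MCL1 hold the effectors BAX and BAK in check, and the BH3-only proteins PUMA (Bbc3), NOXA (Pmaip1), BID and BIM (Bcl2l11) bind the guards or activate the effectors. Bbc3, Pmaip1 and Bax are textbook targets of p53, and BIM and PUMA are known mediators of neuronal death after trophic factor loss and DNA damage. Neurons are also known to splice Bak1 to a neuronal form, and gene-level values do not separate splice forms.

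Bax was the most abundant member in every group. It made up 39.3% ± 3.62 (SD, n = 3 libraries) of the summed FPKM of the 10 members in mCherry neurons, 44.7% ± 3.08 with H-Ras(G12V), 41.7% ± 4.24 in DMSO neurons and 38.5% ± 3.36 with etoposide. Mcl1 came next in all 4 groups, followed by Bcl2l1 in 3 of them. In the DMSO libraries the ranges of Mcl1 and Bcl2l1 overlapped, as they did in the mCherry libraries. In the H-Ras(G12V) libraries both were set apart, from each other and from Bax. At the low end stood Bcl2, at a mean of 2.75 FPKM in DMSO and 6.25 FPKM in mCherry neurons, and Bcl2l11, at 1.46 and 1.67 FPKM. Bcl2l1 RNA was therefore more abundant than that of Bcl2, at 10.5 to 39.6 times the FPKM of Bcl2 in the DMSO libraries and 6.23 to 14.9 times in the mCherry libraries. The order differed between DMSO and etoposide neurons. Bok stood at rank 4 with DMSO and rank 8 with etoposide. By mean FPKM, Bbc3 moved from rank 6 in DMSO neurons to rank 3 with etoposide, where its range overlapped those of its neighbours Mcl1 and Bcl2l1. Its share of the summed FPKM was 3.43% ± 0.271 with DMSO and 11.6% ± 4.87 with etoposide. The latter was just below the share of Bcl2l1 (11.8% ± 3.21).

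**Figure D1:**
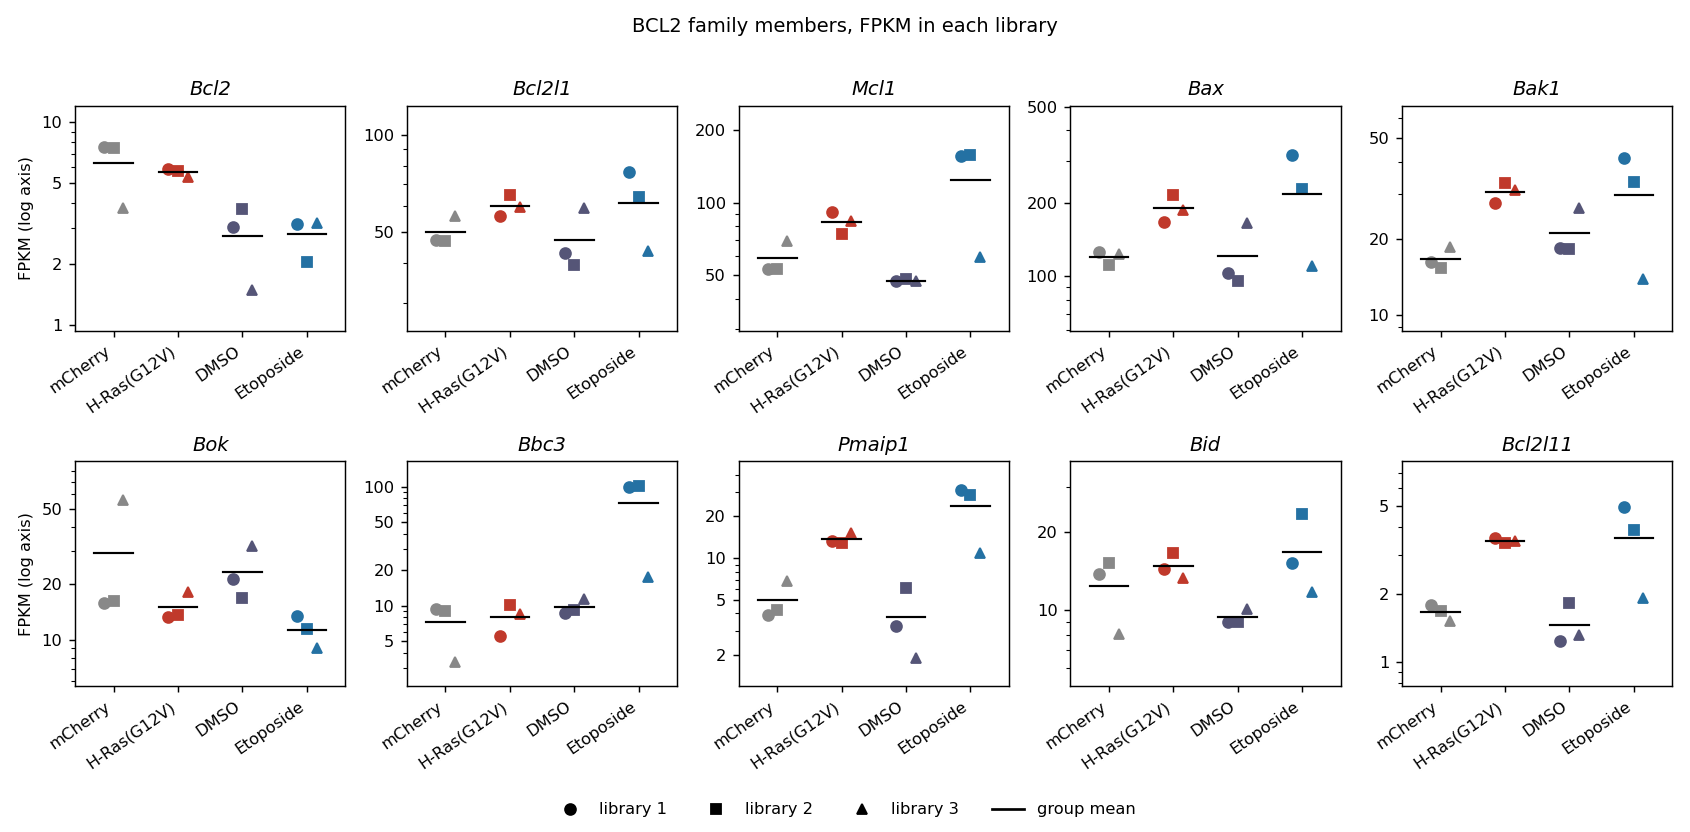
FPKM of the 10 members (log axis, a separate scale for each gene) in every library, with point shape for the library number and a bar for the group mean. Pmaip1, Bak1, Bax and Bcl2l11 are higher in all 3 H-Ras(G12V) libraries than in any mCherry library, and etoposide library 3 (triangle) lies below etoposide libraries 1 and 2 for Bbc3, Mcl1, Bax, Bak1, Bcl2l1, Pmaip1, Bid, Bcl2l11 and Bok.

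With H-Ras(G12V), both main pore formers and 2 BH3-only genes had higher RNA levels, while the guards showed no change that passed the test. Pmaip1, Bak1, Bcl2l11 and Bax rose, by 2.77, 1.83, 2.09 and 1.58 times in group means, and no member fell. These 4 of 10 members compare with 10.3% of the 12724 tested genes called higher and 6.67% called lower (limma on log2(FPKM + 1), adjusted p under 0.05). The median log2 fold change was 0.39 over the 10 members and 0.05 over all tested genes. The range of all 3 H-Ras(G12V) libraries lay above that of the mCherry libraries for 5 members, the called 4 and Mcl1, against 23.7% of tested genes.

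Of the effectors, Bax stood at 167, 216 and 188 FPKM in H-Ras(G12V) libraries 1 to 3 and at 126, 112 and 123 FPKM in mCherry libraries 1 to 3. The groups did not overlap, and the mCherry libraries lay close together, library 3 included. The groups differed by 0.65 ± 0.13 on the log2 scale (SE, adjusted p = 0.0218). Bak1, which codes for the effector resident in the outer membrane, stood at 27.7, 33.2 and 31.0 FPKM with H-Ras(G12V) and at 16.3, 15.3 and 18.6 FPKM with mCherry. Again every H-Ras(G12V) library was above every mCherry library, with a log2 fold change of 0.84 ± 0.13 (adjusted p = 0.00936). By the annotation of GENCODE M21, 25.5% of the exon bases of Bak1 are shared with Ggnbp1 on the opposite strand and 12.2% of those of Bax with Gm45808 on the same strand. Whether the counting used strand is not given, so reads there cannot be assigned with certainty. Bok, an effector-like member studied mainly at the endoplasmic reticulum, gave 13.3, 13.5 and 17.9 FPKM with H-Ras(G12V) and 15.7, 16.0 and 56.2 FPKM with mCherry. Only mCherry library 3 was high, the groups overlapped, and the log2 fold change of -0.68 ± 0.46 did not pass (adjusted p = 0.337). Without mCherry library 3 the mean of the controls was 15.9 FPKM and the fold 0.940.

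The 250 bases before the RefSeq start of Bax are shown because Bax is the textbook p53 target among the effectors and rose here. RefSeq entries matched 9 of the 10 members and gave 14 start sites, read on GRCm38.p6 and so on another build than mm9, which the submitters' processing notes name. Both strands of each window were searched for the p53 half-site consensus and for the motifs GTAAACA (FOXO), CCGGAAGT (ETS), TGACGTCA (CRE), TGANTCA (AP-1), TGATGNAA (C/EBP-ATF) and TTTCCCGC (E2F). In the window of Bax, at chr7:45466899-45467148 on the minus strand, the capitals mark a p53 half-site match at -201 to -192 from the start.
Bax: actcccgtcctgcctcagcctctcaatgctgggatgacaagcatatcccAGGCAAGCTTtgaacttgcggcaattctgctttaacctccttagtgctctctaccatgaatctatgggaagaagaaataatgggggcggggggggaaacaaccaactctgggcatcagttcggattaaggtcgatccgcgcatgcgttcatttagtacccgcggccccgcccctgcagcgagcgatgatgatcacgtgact
A p53 half-site match occurs in 7.13% of the 32851 RefSeq windows of the same length, and the Bax window was the only 1 of the 14 member windows with one. A match describes letters and not a bound site.

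Among the guards, Mcl1, whose protein is short-lived and the main partner of NOXA, came closest to a change. It stood at 91.0, 73.8 and 83.5 FPKM with H-Ras(G12V) and at 53.2, 53.3 and 69.6 FPKM with mCherry. The groups did not overlap, mCherry library 3 being the nearest control, and the log2 fold change of 0.49 ± 0.15 missed the threshold (adjusted p = 0.0645). Bcl2l1, the source of BCL-xL, stood at 55.8, 64.8 and 59.7 against 47.0, 46.6 and 56.0 FPKM. Here mCherry library 3 reached into the H-Ras(G12V) range, with a log2 fold change of 0.27 ± 0.13 (adjusted p = 0.181). Bcl2 stood at 5.89, 5.72 and 5.37 against 7.52, 7.48 and 3.76 FPKM. The H-Ras(G12V) values fell between the controls, below mCherry libraries 1 and 2 and above library 3, with a log2 fold change of -0.07 ± 0.24 (adjusted p = 0.858).

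Of the BH3-only genes, Pmaip1 stood at 13.2, 12.9 and 15.3 FPKM in the H-Ras(G12V) libraries and at 3.91, 4.20 and 6.79 FPKM in the mCherry libraries. All 3 H-Ras(G12V) libraries were well above the highest control, mCherry library 3, and the log2 fold change of 1.34 ± 0.20 was larger than that of the other members (adjusted p = 0.00847). It exceeded the log2 fold change of 97.7% of all tested genes. Bcl2l11, whose product BIM binds all guards, stood at 3.59, 3.40 and 3.48 FPKM with H-Ras(G12V) and at 1.79, 1.69 and 1.52 FPKM with mCherry. The spread within each group was small beside the gap between them, with a log2 fold change of 0.75 ± 0.12 (adjusted p = 0.0116). Bcl2l11 is also a gene of low level, above only 10.2% of tested genes, and the added pseudocount of 1 FPKM shrinks its log2 fold change.

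The 250 bases before the first RefSeq start of Bcl2l11, at chr2:128125788-128126037 on the plus strand, are shown because FOXO factors are the textbook activators of this gene. The capitals mark a FOXO match, GTAAACA, at -227 to -221.
Bcl2l11: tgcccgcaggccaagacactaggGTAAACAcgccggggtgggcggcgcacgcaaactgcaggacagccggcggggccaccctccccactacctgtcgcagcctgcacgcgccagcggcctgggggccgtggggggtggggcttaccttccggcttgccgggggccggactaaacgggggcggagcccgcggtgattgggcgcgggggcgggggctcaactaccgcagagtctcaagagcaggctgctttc
FOXO matches occur in 3.17% of RefSeq windows and in 2 of the 14 member windows, this one and one of Bbc3. Foxo1, which codes for a FOXO factor, fell with H-Ras(G12V), from 8.25 ± 0.453 (SD, n = 3) to 5.20 ± 0.322 FPKM (log2 fold change -0.58 ± 0.12, adjusted p = 0.0208). It missed the threshold when H-Ras(G12V) library 1 or 3 or mCherry library 1 or 2 was left out (adjusted p = 0.0730 to 0.101).

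The other BH3-only members did not separate the groups. Bbc3, the source of PUMA, stood at 5.59, 10.1 and 8.51 FPKM with H-Ras(G12V) and at 9.38, 9.04 and 3.36 FPKM with mCherry. The ranges overlapped, with a log2 fold change of 0.20 ± 0.37 (adjusted p = 0.730) that turned to -0.21 without mCherry library 3. Bid, whose product links death receptors to mitochondria once cut by caspase-8, stood at 14.4, 16.7 and 13.4 against 13.8, 15.2 and 8.13 FPKM. It too overlapped, at 0.28 ± 0.23 on the log2 scale (adjusted p = 0.422). The exons of Bid share 17.7% of their bases with Bcl2l13 on the opposite strand.

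The calls rested on the libraries to unequal degrees. Bak1 and Pmaip1 passed with any 1 library left out. Bax no longer passed without H-Ras(G12V) library 1 (adjusted p = 0.0542) or 3 (0.0855) and without mCherry library 1 (0.0723) or 2 (0.0958). Bcl2l11 was lost without the same libraries, at adjusted p = 0.0646, 0.0508, 0.0506 and 0.0555. Without mCherry library 3, 25.4% of tested genes were called higher and 19.5% lower, and 6 members were higher and 1 lower. Mcl1 (0.62, adjusted p = 0.00396) and Bcl2l1 (0.35, adjusted p = 0.0271) then rose, and Bcl2 fell by 0.35 on the log2 scale (adjusted p = 0.0312). The only controls in that fit were mCherry libraries 1 and 2, which were nearly alike (rho 0.997), so the control spread behind these p-values was very small. With those 2 averaged into 1 library and mCherry library 3 kept, 2 members were called. Rescaling the libraries to a common sum moved the median log2 fold change of all genes from 0.05 to -0.07, and the share of calls that were higher from 60.7% to 39.1%. The 4 called members passed under that scaling too, Bax with a log2 fold change of 0.51 (adjusted p = 0.0364), against 6.73% of genes called higher.

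Markers of other cells moved with H-Ras(G12V). Summed oligodendrocyte-lineage markers stood at 829 to 1021 FPKM against 204 to 703 FPKM with mCherry, with 4 of 7 tested markers called higher. Summed markers of progenitors and dividing cells stood at 276 to 359 against 135 to 147 FPKM, with 6 of 7 called higher, and astrocyte markers at 2536 to 3680 against 1171 to 3119 FPKM, with 1 of 8 called. Fibroblast and mural markers fell, to 11.9 to 19.8 from 136 to 251 FPKM, with 8 of 8 called lower. Neuronal markers summed to 1350 to 1584 against 2141 to 2238 FPKM, with 1 of 12 called in each direction. Microglial markers summed to 12.1 to 36.3 against 4.71 to 13.4 FPKM, with 1 of 2 tested, Cd68, called higher (adjusted p = 0.0298). Most of the H-Ras(G12V) sum was Cd68, at 13.1, 26.4 and 9.67 FPKM. Tmem119, not tested, was lower, at a mean of 0.277 against 1.32 FPKM, and the remaining microglial markers overlapped between the groups. Endothelial markers were low, at 1.91 to 2.19 FPKM in sum with H-Ras(G12V) against 1.52 to 5.14 FPKM with mCherry, and Cldn5 was at 0 in all 3 H-Ras(G12V) libraries. Kdr, the only 1 tested, stood at 0.36 to 0.56 against 0.86 to 4.21 FPKM and was not called (adjusted p = 0.0629). With all libraries, 10.3% of tested genes were called higher and 6.67% lower. Without mCherry library 3, 7 of 8 astrocyte and 7 of 7 oligodendrocyte-lineage markers were called higher. Of 12 neuronal markers, 5 were then called higher and 4 lower. In that fit 25.4% of all tested genes were called higher and 19.5% lower. The part of these markers in the changes of Bax, Bak1, Pmaip1 and Bcl2l11 was not tested.

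**Figure D2:**
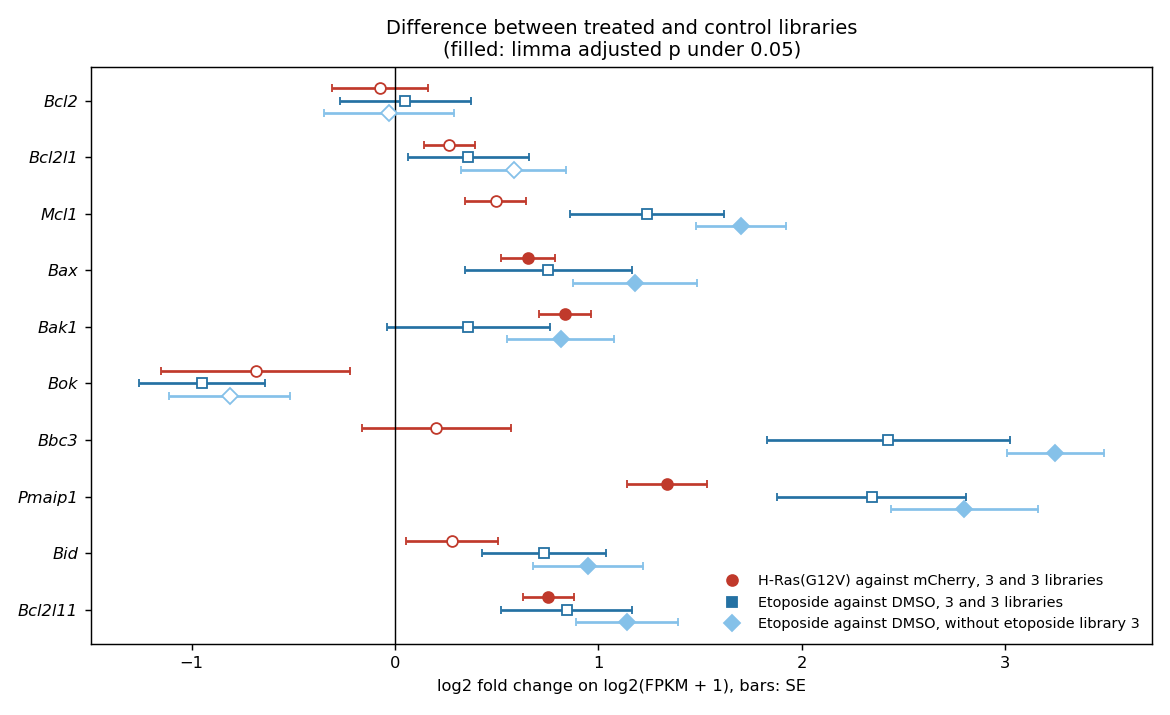
Log2 fold change on the log2(FPKM + 1) scale with its SE for each member, for H-Ras(G12V) against mCherry (circles), etoposide against DMSO (squares) and the latter without etoposide library 3 (diamonds), filled where the adjusted p was under 0.05. With all libraries 4 members pass with H-Ras(G12V) and 0 with etoposide, and without etoposide library 3 the number that pass is 7.

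With etoposide, the p53-linked BH3-only genes Bbc3 and Pmaip1 and the guard Mcl1 had the highest means relative to DMSO, at 7.46, 6.29 and 2.61 times, but no member passed the test with all 6 libraries. The call was 0 of 10 by limma, with 6 of 10 at an unadjusted p under 0.05. In the same fit 0.453% of 12371 tested genes were called, all lower, and 13.9% had an unadjusted p under 0.05. The median log2 fold change was 0.74 over the members and 0.09 over all tested genes. The etoposide range lay above the DMSO range for 5 members (Mcl1, Bbc3, Pmaip1, Bid and Bcl2l11) and below it for Bok, against 7.64% and 8.17% of tested genes. Without etoposide library 3, which resembled the DMSO libraries, 7 members were called, all higher, against 18.4% of tested genes called higher. Leaving out any other 1 of the 6 libraries gave 0 members called. Library 3 was singled out for its likeness to the controls and was the lowest etoposide library for most members. Its removal therefore favours higher calls, and the fits without it below are a description only.

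Bbc3 stood at 99.8, 102 and 17.4 FPKM in etoposide libraries 1 to 3 and at 8.64, 9.25 and 11.5 FPKM in DMSO libraries 1 to 3. Etoposide libraries 1 and 2 were about level and far above library 3, which was still above every DMSO library. On the log2 scale the difference was 2.42 ± 0.60 (adjusted p = 0.223), and 3.25 ± 0.24 without etoposide library 3 (adjusted p = 5.44e-05), where the fold of means was 10.3. With all libraries this log2 fold change exceeded that of 99.6% of tested genes.

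A window of Bbc3 is printed because this gene had the highest etoposide fold among the members. It lies before the second of 3 RefSeq starts, at chr7:16310011-16310260 on the plus strand, and the capitals mark a FOXO match on the opposite strand, TGTTTAC, at -167 to -161.
Bbc3: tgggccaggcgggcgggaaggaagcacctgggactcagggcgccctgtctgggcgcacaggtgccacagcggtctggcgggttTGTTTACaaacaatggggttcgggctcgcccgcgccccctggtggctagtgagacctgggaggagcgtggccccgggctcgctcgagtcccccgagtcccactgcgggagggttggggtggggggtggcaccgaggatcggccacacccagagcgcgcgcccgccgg
None of the member windows held a match to the ETS, CRE, AP-1, C/EBP-ATF or E2F letters, and these letters occur in 0.895% (E2F) to 6.75% (AP-1) of all windows.

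Pmaip1 stood at 31.1, 28.6 and 10.96 FPKM with etoposide and at 3.22, 6.11 and 1.91 FPKM with DMSO. Etoposide library 3 was again the lowest of its group and again above all controls. The difference in log2 units was 2.34 ± 0.46 (adjusted p = 0.102), and 2.80 ± 0.36 without etoposide library 3 (adjusted p = 0.000777). In a single fit of the 12 libraries Pmaip1 was the only 1 of the 10 members called (adjusted p = 0.00866), against 0.229% of genes called higher. Bcl2l11 stood at 4.94, 3.89 and 1.92 against 1.24, 1.83 and 1.31 FPKM. Its etoposide library 3 was barely above DMSO library 2, with a log2 fold change of 0.84 ± 0.32 (adjusted p = 0.355) and of 1.14 ± 0.25 without that library (adjusted p = 0.00889). Bid stood at 15.3, 23.6 and 11.8 against 9.01, 8.99 and 10.1 FPKM. The groups were separate but close, at 0.73 ± 0.31 with all libraries (adjusted p = 0.357) and 0.95 ± 0.27 without etoposide library 3 (adjusted p = 0.0251).

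Among the guards, Mcl1 stood at 156, 157 and 59.7 FPKM with etoposide and at 47.3, 48.1 and 47.2 FPKM with DMSO. The DMSO libraries hardly differed, and etoposide library 3 was nearer to them than to its own group. Group means of log2 values lay 1.24 ± 0.38 apart (adjusted p = 0.353), and 1.70 ± 0.22 without etoposide library 3 (adjusted p = 0.000801). Bcl2l1 stood at 76.7, 64.0 and 43.7 against 43.0, 39.3 and 59.1 FPKM. Both libraries 3 crossed over, and the log2 fold change of 0.36 ± 0.30 (adjusted p = 0.526) passed only with both of them left out (0.75 ± 0.17, adjusted p = 0.0249), when 8 members and 22.2% of genes were called higher. Bcl2 stood at 3.14, 2.04 and 3.19 against 3.03, 3.73 and 1.49 FPKM, overlapping at 0.05 ± 0.32 (adjusted p = 0.943).

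Of the effectors, 2 overlapped between the groups and Bok did not. Bax stood at 315, 228 and 110 FPKM with etoposide and at 104, 95.2 and 166 FPKM with DMSO. Etoposide library 3 fell among the controls and DMSO library 3 was the highest of them. The groups differed by 0.75 ± 0.41 on the log2 scale (adjusted p = 0.395), and 1.18 ± 0.30 without etoposide library 3 (adjusted p = 0.0169). Bak1 stood at 41.7, 33.4 and 13.9 against 18.5, 18.3 and 26.6 FPKM. Its etoposide library 3 was the lowest of all 6, with 0.36 ± 0.40 over all libraries (adjusted p = 0.635) and 0.81 ± 0.26 without that library (adjusted p = 0.0407). Bok stood at 13.4, 11.4 and 9.04 against 21.1, 16.8 and 31.6 FPKM. Every etoposide library was below every DMSO library, library 3 most of all, at -0.95 ± 0.31 (adjusted p = 0.353) and -0.81 ± 0.30 without etoposide library 3 (adjusted p = 0.0622).

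Marker levels differed with etoposide as well. Summed neuronal markers were 722, 1571 and 2594 FPKM in etoposide libraries 1 to 3 and 2047 to 2309 FPKM with DMSO, so that library 3 was at the DMSO level or above it. Oligodendrocyte-lineage markers summed to 64.8 to 209 against 507 to 875 FPKM, with 3 of 7 tested markers called lower (Olig2, Pdgfra and Sox10), and astrocyte markers to 609 to 946 against 1016 to 1583 FPKM, with 0 of 8 called and 5 of 8 at an unadjusted p under 0.05. Of these 5, Gfap, Aldh1l1, Slc1a3 and Aldoc were lower and Gja1 was higher, at 378, 287 and 60.8 against 59.0 to 76.8 FPKM. Of the markers of progenitors and dividing cells 2 of 6 tested were called lower, the mitotic genes Ccnb1 (0.420 ± 0.108 against 12.6 ± 3.03 FPKM, adjusted p = 0.00226) and Cdk1 (0.540 ± 0.367 against 4.50 ± 1.24 FPKM, adjusted p = 0.0398). The progenitor marker Nes went the other way in etoposide libraries 1 and 2, at 59.3, 45.4 and 15.2 against 15.3 to 22.6 FPKM. Microglial markers summed to 109 and 80.7 FPKM in etoposide libraries 1 and 2, against 9.63 FPKM in library 3 and 5.18 to 27.4 FPKM with DMSO. Most of that sum was Cd68, at 97.4 and 77.5 FPKM in libraries 1 and 2, and 0 of the 3 tested microglial markers were called, with 1 at an unadjusted p under 0.05. Endothelial markers summed to 1.46 to 5.40 FPKM against 0.51 to 1.77 FPKM with DMSO, and 0 were tested. Fibroblast and mural markers overlapped, at 76.0 to 387 against 85.8 to 383 FPKM in sum, with 0 of 8 called. With all libraries 0.453% of tested genes were called and 13.9% had an unadjusted p under 0.05. Without etoposide library 3, 6 of 8 astrocyte markers were called lower and 1 higher. Of 12 neuronal markers 4 were then lower, and of 7 oligodendrocyte-lineage markers 5 were lower. Of 6 markers of progenitors and dividing cells 3 were called lower and 1 higher. In that fit 2281 of 12403 tested genes were called higher and 1657 lower. The part of these markers in the member differences was not tested.

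**Figure D3:**
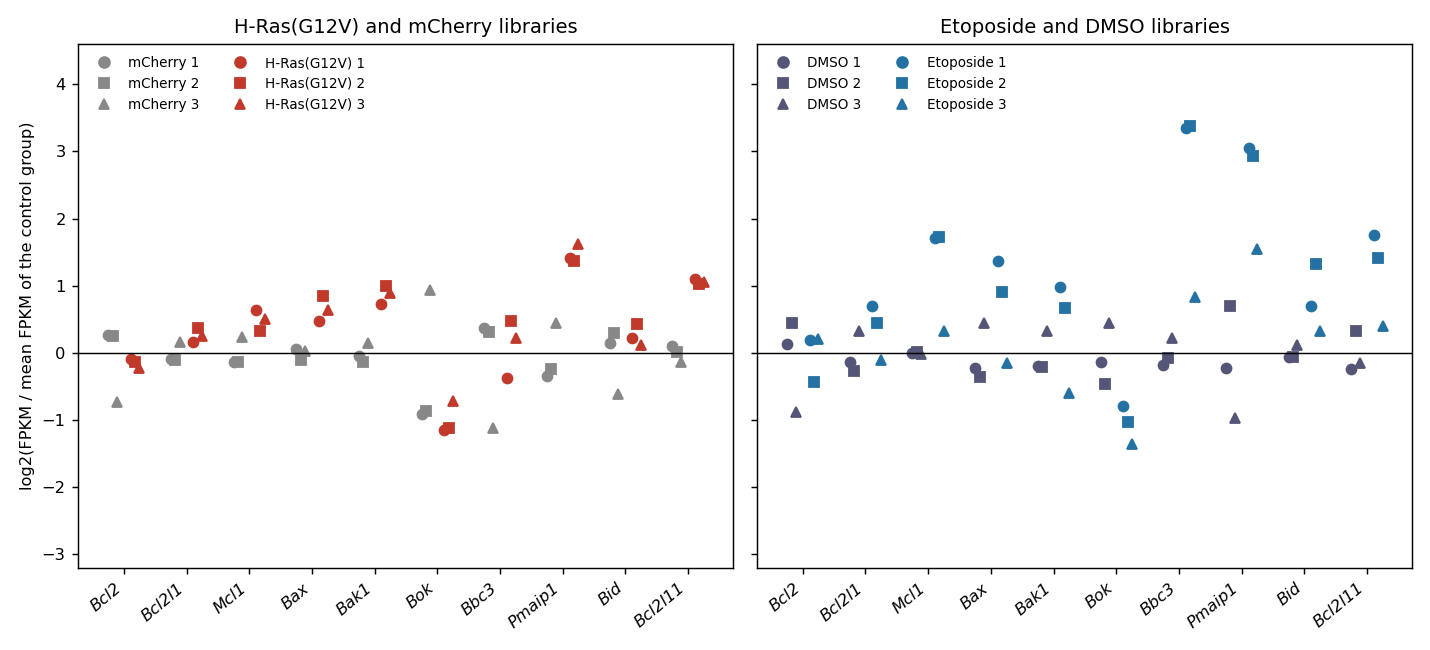
Log2 ratio of each library's FPKM to the mean of its control group, by member, in the first experiment (left) and in the second (right). Etoposide libraries 1 and 2 lie more than 3 log2 units above the DMSO mean for Bbc3, and mCherry library 3 departs from the other controls for Bok, Bbc3, Bcl2, Bid and Pmaip1.

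Whether a member responded differently to the 2 treatments was tested by an interaction contrast, the log2 fold change with H-Ras(G12V) less that with etoposide, over the 12 libraries and with a common spread. Of the 10 members 0 passed by limma, against 3.76% of 12646 tested genes, and 1 of 10 (Bbc3) had an unadjusted p under 0.05, against 18.3% of genes. The difference was -2.22 ± 0.80 for Bbc3 (adjusted p = 0.169), -1.01 ± 0.55 for Pmaip1 (adjusted p = 0.351) and -0.75 ± 0.44 for Mcl1 (adjusted p = 0.380). Without etoposide library 3 the effect of H-Ras(G12V) was the smaller for 3 members, Bbc3 (-3.04 ± 0.47, adjusted p = 0.00130), Mcl1 (-1.20 ± 0.23, adjusted p = 0.00405) and Pmaip1 (-1.46 ± 0.43, adjusted p = 0.0335), against 12% of genes called in that direction. The differences of Bax, Bak1, Bcl2l11, Bid, Bcl2, Bcl2l1 and Bok passed in neither fit.

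Ratios between members within a library, which do not depend on scaling, were described without a test. Bak1 to Bcl2l1 was 0.510 ± 0.0121 (SD, n = 3) with H-Ras(G12V) and 0.335 ± 0.00924 with mCherry, and the 3 libraries of each group were nearly alike, mCherry library 3 included. Bax to Bcl2l1 was 3.16 ± 0.175 against 2.42 ± 0.237, also without overlap. With etoposide, Bax to Bcl2l1 was 2.52 to 4.10 against 2.41 to 2.80 with DMSO, and Bak1 to Bcl2l1 was 0.319 to 0.543 against 0.430 to 0.464, both overlapping. Pmaip1 to Mcl1, whose products are known binding partners, was 0.167 ± 0.0199 with H-Ras(G12V) against 0.0833 ± 0.0127 with mCherry. With etoposide it was 0.183 to 0.199 in all 3 libraries, library 3 included, against 0.0405 to 0.127 with DMSO. Bbc3 to Bcl2l1 was 0.399 to 1.59 with etoposide and 0.194 to 0.235 with DMSO, but 0.1003 to 0.155 with H-Ras(G12V) and 0.0600 to 0.200 with mCherry.

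Summed over their class, the BH3-only members came to 0.581 ± 0.165 of the FPKM of the 3 guards with etoposide against 0.251 ± 0.0310 with DMSO, without overlap. With H-Ras(G12V) the same ratio was 0.271 ± 0.0284 against 0.234 ± 0.0703 with mCherry, overlapping. The 3 effectors came to 1.59 ± 0.232 times the guards with H-Ras(G12V) and 1.44 ± 0.101 times with mCherry. The corresponding ratios were 1.35 ± 0.190 with etoposide and 1.68 ± 0.348 with DMSO, and both pairs overlapped.

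**Figure D4:**
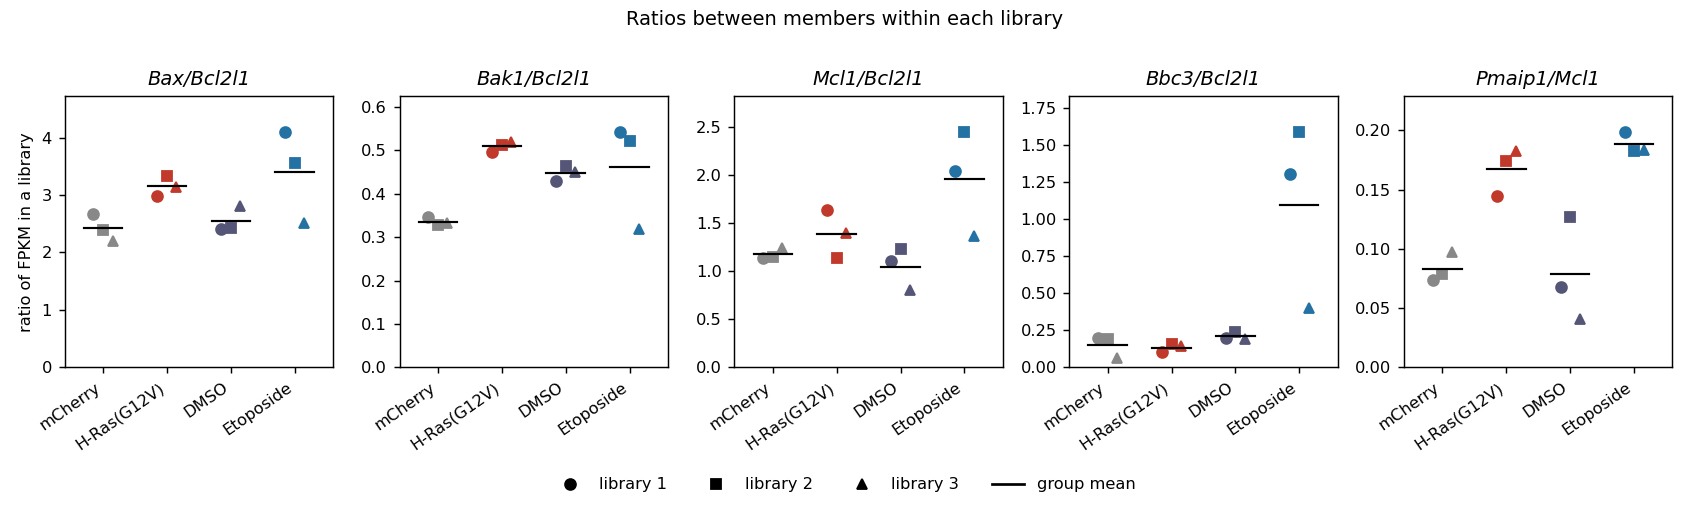
Ratios of FPKM between pairs of members within each library (linear axes from 0), with a bar for the group mean. Bak1/Bcl2l1, Bax/Bcl2l1 and Pmaip1/Mcl1 separate H-Ras(G12V) from mCherry, and Pmaip1/Mcl1, Bbc3/Bcl2l1 and Mcl1/Bcl2l1 separate etoposide from DMSO in all 3 libraries.

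Of 15 other BCL2 family genes 8 were tested, and with H-Ras(G12V) 0 were called higher and 1 lower, against 10.3% and 6.67% of all tested genes. That was Hrk, a BH3-only gene known from neurons deprived of trophic factor, which fell from 5.55 ± 1.09 (SD, n = 3) to 1.38 ± 0.497 FPKM (log2 fold change -1.47 ± 0.21, adjusted p = 0.00816). The guard Bcl2l2, known as BCL-w, stood at 24.0 ± 0.915 against 23.5 ± 7.63 FPKM, and the BH3-only gene Bad at 34.6 ± 6.72 against 33.1 ± 3.39 FPKM. Bmf averaged 1.11 FPKM with H-Ras(G12V) and 0.750 FPKM with mCherry and was not tested. With etoposide 0 of 8 were called, and 0 of 8 had an unadjusted p under 0.05. Hrk there stood at 4.66, 7.12 and 15.9 against 11.6 to 13.6 FPKM, and without etoposide library 3 it fell, by 1.00 on the log2 scale (adjusted p = 0.0202).

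Over all tested genes, 10.3% were called higher and 6.67% lower with H-Ras(G12V). Downstream of the mitochondria, 4 of 14 genes of the apoptosome, the caspases and their nucleases rose with H-Ras(G12V) and 0 fell. Among them were the caspase gene Casp6 (0.71 ± 0.12, adjusted p = 0.0133), the initiator Casp8 (0.73 ± 0.18, adjusted p = 0.0357) and Diablo, whose product antagonises the inhibitor of apoptosis proteins (0.42 ± 0.11, adjusted p = 0.0367). The calls of Casp8 and Diablo did not hold without any 1 library other than mCherry library 3 (adjusted p = 0.0823 to 0.127 and 0.0626 to 0.167), nor that of Casp6 without H-Ras(G12V) library 1 or 3 or mCherry library 1 or 2 (0.0508 to 0.0622). Etoposide gave 0 of 14 calls, and 3 of 14 had an unadjusted p under 0.05, against 13.9% of all tested genes. Apaf1, the scaffold that activates caspase-9, stood at 10.8, 12.3 and 7.94 against 2.85 to 5.01 FPKM. All 3 etoposide libraries were above all DMSO libraries, at 1.13 ± 0.31 (adjusted p = 0.288), and the gene passed without etoposide library 3 (adjusted p = 0.00887).

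Among inhibitors of apoptosis proteins, Birc5, which is also a mitotic gene, rose with H-Ras(G12V), from 18.8 ± 1.63 to 37.3 ± 8.88 FPKM (0.93 ± 0.18, adjusted p = 0.0176). It was the only 1 of 4 tested that was called, against 10.3% of all tested genes called higher and 6.67% lower. The call did not hold without H-Ras(G12V) library 1 (adjusted p = 0.0624) or mCherry library 1 (0.0551) or 2 (0.0601). Xiap, the direct caspase inhibitor, stood at 11.01 to 18.99 against 17.6 to 19.8 FPKM. Among the same 4, 0 were called with etoposide and 1, Birc5, had an unadjusted p under 0.05, against 13.9% of all tested genes.

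Upstream, Trp53 rose with H-Ras(G12V), from 25.2 ± 2.15 to 39.4 ± 2.24 FPKM (0.63 ± 0.12, adjusted p = 0.0159), and so did Mdm2, its ubiquitin ligase and target (0.59 ± 0.16, adjusted p = 0.0499). These were 2 of 8 tested genes of p53 and its regulators, with 0 called lower. Over all tested genes 10.3% were called higher and 6.67% lower. The call of Trp53 did not hold without H-Ras(G12V) library 1 (0.0624) or 3 (0.0669) and without mCherry library 1 (0.0522) or 2 (0.0701). Mdm2 lay at the threshold and missed it under most alternatives. In the etoposide experiment 0 of 8 were called and 1 of 8, Mdm2, had an unadjusted p under 0.05, against 13.9% of all tested genes. Mdm2 stood at 182, 189 and 22.2 against 13.1 to 17.7 FPKM, with the same order of libraries as Bbc3. Trp53 stood at 59.8, 59.2 and 15.4 against 18.2 to 26.9 FPKM, so that etoposide library 3 was below every control. Of 22 p53 targets outside the family, a list overlapping those already described for these data, 11 rose with H-Ras(G12V), 0 fell, and the median log2 fold change was 0.70. Among the 11, Fas and Tnfrsf10b are counted again in the death receptor list below. Of the same 22, etoposide gave 0 called, 16 with an unadjusted p under 0.05, and a median of 1.27. Without etoposide library 3, 16 of 22 were called higher and 1 lower, against 18.4% of all tested genes called higher.

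Of 12 other regulators of BH3-only genes, 1 rose and 2 fell with H-Ras(G12V), against 10.3% and 6.67% of all tested genes. Ddit3, the stress factor CHOP that activates Bcl2l11 and Bbc3, rose from 16.3 ± 6.73 to 35.03 ± 8.498 FPKM (1.10 ± 0.29, adjusted p = 0.0422). That call was lost under both rescalings (adjusted p = 0.0605 and 0.0540) and without any 1 library other than mCherry library 3 (adjusted p = 0.0878 to 0.128). Foxo1, given above, and the neuronal JNK gene Mapk10 fell (-0.73 ± 0.11, adjusted p = 0.00915). After etoposide 0 of 12 were called and 2 of 12, Ddit3 and Jun, had an unadjusted p under 0.05, against 13.9% of all tested genes. Ddit3 stood at 455, 557 and 39.1 against 26.0 to 41.6 FPKM, and Jun at 252, 230 and 51.8 against 42.0 to 56.3 FPKM. For both, etoposide library 3 was within the DMSO range.

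The list for the death receptor arm held 10 genes of TNF receptor family members and their signalling partners. Of these 4 rose with H-Ras(G12V) and 0 fell, against 10.3% and 6.67% of all tested genes. The 4 were Tnfrsf12a (2.40 ± 0.41, adjusted p = 0.0128), Fas (1.36 ± 0.27, adjusted p = 0.0207), Tnfrsf10b, which codes for the TRAIL receptor (1.05 ± 0.19, adjusted p = 0.0152), and the adaptor Fadd (0.60 ± 0.12, adjusted p = 0.0219). Each of these calls missed the threshold with some libraries left out: Tnfrsf12a with H-Ras(G12V) library 1 or 2 omitted (0.0561 and 0.0593, all adjusted p), Fadd without H-Ras(G12V) library 1 or 3 or mCherry library 1 or 2 (0.0752 to 0.102), and Fas and Tnfrsf10b without any 1 library other than mCherry library 3 (0.0665 to 0.0812 and 0.0540 to 0.0662). With etoposide 0 of 10 were called and 4 of 10 had an unadjusted p under 0.05, against 13.9% of all tested genes. Fas stood at 13.4, 7.92 and 5.81 against 1.82 to 2.56 FPKM there, and Tnfrsf10b at 34.1, 23.5 and 6.21 against 2.58 to 3.48 FPKM. Among partners at the outer membrane and the endoplasmic reticulum, 1 of 9 tested genes rose and 1 fell with H-Ras(G12V), against 10.3% and 6.67%. Both code for IP3 receptors, the calcium channels that BCL2 proteins bind, Itpr2 rising (1.22 ± 0.29, adjusted p = 0.0320) and Itpr1 falling (-0.70 ± 0.16, adjusted p = 0.0323). Both missed the threshold without any 1 library other than mCherry library 3 (adjusted p = 0.0684 to 0.116 and 0.0605 to 0.117). With etoposide 0 of 9 were called and 0 of 9 had an unadjusted p under 0.05. Of the genes for turnover of BCL2 proteins 0 of 8 were called with H-Ras(G12V) and 0 of 9 with etoposide by limma, with 0 at an unadjusted p under 0.05 in both.

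For the called members, the genes with the most similar pattern were sought over the 12 libraries by Pearson's r on log2(FPKM + 1), centred within each table, among 12646 genes. The libraries share their treatments and depth, so r describes likeness only. Closest to Bax were Slc39a7 (r = 0.990), Nucb1 (0.985) and Cyp4f13 (0.981), and closest to Bak1 were Npepl1 (0.987), Snx8 (0.983) and Ext2 (0.981). Pmaip1 was most like Pqlc3 (0.973), Abcb1b (0.965) and Slc16a9 (0.965), and Bcl2l11 most like Plau (0.990), Tubb6 (0.987) and Ptpn14 (0.986).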

How the data were processed

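The authors deposited FPKM values per gene and library with 2 decimals, in 1 table per experiment, per the file headers. HISAT, Bowtie2, RSEM and build mm9 are listed, with no version or role, per the submitters' processing notes. Other steps of the authors are not given in the sources used here. Both tables were treated as normalised separately, so each comparison was fitted within its own table, and the interaction contrast sets within-table differences against each other.

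log2(FPKM + 1) was computed from the deposited FPKM and fitted with limma 3.58.1 (lmFit and eBayes, trend = TRUE, R 4.3.3). Genes averaging 1 FPKM or more across a table's 6 libraries were tested, two-sided, and p-values were adjusted by Benjamini-Hochberg over all of them (threshold 0.05). The script was tested on simulated data. Fold changes on this scale understate changes of low genes, and folds given as times are ratios of mean FPKM. Counts were not used, and estimated depths put 1 FPKM at 16.0 to 31.3 fragments per kilobase of transcript. The 10 members and the lists were chosen with earlier results of these data known, and lists are given by counts and medians only. Named genes were the members, up to 4 called genes per list and direction, 11 set genes, and the 3 most similar genes of each called member. Other list genes named with values (Jun, Foxo3, Cd68, Tmem119, Kdr, Gja1, Nes, Ccnb1, Cdk1, Top2a and Mki67) were chosen after their values were seen. Some genes of the lists are not reported here. Promoter windows came from RefSeq tables of GRCm38.p6. Alternatives covered the pseudocount, the filter, scaling, the variance model, the replicate block, a single fit of the 12 libraries and each library left out. A lone or reduced group was assumed to vary like the other.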

Additional observations from a re-analysis of the deposited data

Results flagged for a closer look

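Birc5, which codes for the mitotic inhibitor of apoptosis protein survivin, differed in its response between the 2 experiments. Its mean was higher than in the controls with H-Ras(G12V) and lower with etoposide. The log2 fold change with H-Ras(G12V) less that with etoposide was 2.81 ± 0.40 (limma interaction contrast over 12 libraries, adjusted p = 0.00151). Birc5 stood at 33.8, 30.6 and 47.4 FPKM in the H-Ras(G12V) libraries against 20.1, 19.3 and 17.0 FPKM with mCherry. It stood at 3.25, 3.34 and 1.17 FPKM with etoposide against 8.81, 13.6 and 12.9 FPKM with DMSO, where the log2 fold change of -1.88 ± 0.35 did not pass alone (adjusted p = 0.0823). All libraries of a treated group lay on 1 side of their controls in both experiments. With each library left out in turn the difference was 2.48 to 2.99. The H-Ras(G12V) call of Birc5 itself did not hold without H-Ras(G12V) library 1 or mCherry library 1 or 2. Summed markers of progenitors and dividing cells were 276 to 359 FPKM with H-Ras(G12V), 135 to 147 with mCherry, 42.8 to 112 with etoposide and 79.8 to 109 with DMSO. The last 2 ranges overlap in sum, most of which was Nes and Sox2. Nes was higher in etoposide libraries 1 and 2 (59.3 and 45.4 FPKM) than in any DMSO library (15.3 to 22.6 FPKM). The mitotic genes of that list were lower in every etoposide library than in any DMSO library. Mean FPKM was 0.420 against 12.6 for Ccnb1 (adjusted p = 0.00226), 0.540 against 4.50 for Cdk1 (adjusted p = 0.0398), 1.04 against 13.3 for Top2a (adjusted p = 0.0631) and 0.117 against 0.820 for Mki67, which was not tested. The part of these markers in the Birc5 result was not tested.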

How the results depend on the processing

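Bak1 and Pmaip1 passed with H-Ras(G12V) in 15 of 16 alternatives each, the exception being the single fit of the 12 libraries (adjusted p = 0.183 and 0.0828), and Bax and Bcl2l11 in 9 of 16 and 9 of 15. With each library left out in turn, the members called were 2 to 7 with H-Ras(G12V), 0 to 7 with etoposide and 0 to 3 for the difference of effects, and the genes called 496 to 5716, 4 to 3938 and 277 to 2868. The single fit gave 496 genes and 0 members with H-Ras(G12V) and 194 genes and 1 member (Pmaip1, adjusted p = 0.00866) with etoposide. Averaging mCherry libraries 1 and 2, which were nearly alike, into 1 gave 639 genes and 2 members. A filter of 5 FPKM gave 22 genes with etoposide and 256 for the difference of effects. Leaving out etoposide library 3 and DMSO library 3 together gave 4524 genes and 8 members. The causes of these shifts were not tested. Scaling to a common sum gave 856 genes higher and 1332 lower with H-Ras(G12V), and median-of-ratios scaling gave 1077 and 1052, with a median log2 fold change of -0.00482, against 1312 and 849 as deposited.

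Same-numbered libraries had correlations of deviations from -0.0387 to 0.119 in the first experiment and from -0.265 to -0.151 in the second. Differently numbered libraries had -0.120 to 0.111 and 0.0272 to 0.192. These values gave no sign of pairing by replicate number but cannot exclude it. Deviations within a group of 3 sum to 0, and libraries 3 of mCherry and of etoposide stood apart. With a replicate block, 1681 genes and 3 members were called with H-Ras(G12V) (Bax at adjusted p = 0.0545), 12 genes and 0 members with etoposide, and 345 genes and 0 members for the difference of effects.

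Signs turned in some uncalled results. With H-Ras(G12V), averaged controls gave Bcl2 0.066, Bcl2l2 -0.052, Apaf1 0.10 and Casp9 0.047. Common-sum scaling gave Bcl2l2 -0.067, Bad -0.087 and Cycs -0.018, and median-of-ratios scaling gave Bad -0.011. With etoposide, common-sum scaling gave Bcl2 -0.034 and Casp9 -0.016, median-of-ratios scaling gave Bcl2 -0.0028, and leaving out both libraries 3 gave Bcl2 -0.30 and Xiap -0.34. With 1 library left out, the H-Ras(G12V) log2 fold change was -0.35 to 0.067 for Bcl2, -0.21 to 0.42 for Bbc3, -0.055 to 0.31 for Bcl2l2, -0.093 to 0.17 for Bad, -0.31 to 0.12 for Apaf1, -0.10 to 0.079 for Casp9 and -0.35 to 0.022 for Xiap. For etoposide it was -0.22 to 0.24 for Bcl2, -0.057 to 0.33 for Bad, -0.093 to 0.25 for Casp9 and -0.25 to 0.41 for Xiap. For the interaction contrast it was -0.40 to 0.15 for Bcl2, -0.32 to 0.082 for Bcl2l1, -0.53 to 0.23 for Bax, -0.39 to 0.13 for Bcl2l11 and -0.036 to 0.85 for Bok.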
